A study of Mus musculus with 6 samples.

Results

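The 10 mouse genes of the contractile and myofibroblast cytoskeleton described here were followed across 6 RNA sequencing libraries: Acta2, Tagln, Cnn1, Cnn2, Myl9, Tpm1, Tpm2, Actn1, Vcl and Flna. They were chosen by name, and their rows were found by Ensembl gene ID among 37315 gene entries. All 10 had a row. The cells were 3T3-L1, a line of mouse embryo fibroblasts used as pre-adipocytes, transiently transfected before RNA was isolated. The groups were METTL3 knockdown (2 libraries) and its control (2 libraries), read in single-read mode, and FTO knockdown (1 library) and its control (1 library), read in paired-end mode. METTL3 is the enzyme that adds N6-methyladenosine to mRNA, and FTO is a demethylase that takes such methyl groups off. The knockdown columns carry the prefix "si" in the file headers. What the control cells received, and whether the libraries of a group came from separate cultures, is not given in the sources used here, so the p-values measure only the spread between these libraries, which may be technical.

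Fibroblasts pull on their surroundings through bundles of actin and myosin that end at focal adhesions. When a fibroblast becomes a myofibroblast it adds smooth muscle proteins to these bundles, of which smooth muscle alpha-actin, encoded by Acta2, is the best known. The transcription factor SRF, with its actin-sensing partners of the MRTF family, drives many of these genes through a DNA element called the CArG box. TGF-beta and the YAP and TEAD proteins also act on them. Loss of this cytoskeleton accompanies the rounding up of pre-adipocytes as they become fat cells.

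The promoter stretches of 4 members are shown because they hold CArG boxes, and because the genes among them behaved unlike each other in the libraries described further on. Each is RefSeq sequence on GRCm38.p6, read 5′ to 3′ on the strand of the gene, with the boxes in capitals. A CArG box was searched as 2 C, then 6 bases that are each A or T, then 2 G, on both strands. A looser form, added after the windows had been seen, has a G or C at 1 of the 6 middle positions. The Acta2 stretch (chr19:34255374-34255487, minus strand) holds 2 boxes of the looser form, whose first bases lie 84 and 34 bases before the start that RefSeq gives for the gene (position 34255373). The GENCODE positions printed for the genes are their outermost ends, and for Acta2 that end lies 217 bases upstream of the RefSeq start, so the Acta2 stretch is inside the gene as GENCODE draws it. For the other 3 genes shown the stretch lies upstream of both starts. All distances here are from the RefSeq start. The Myl9 stretch (chr2:156775273-156775404, plus strand) holds a full box 161 bases before the start and a looser one at 99 bases. The Cnn2 stretch (chr10:79988514-79988583, plus strand) has a full box at 56 bases, and the Vcl stretch (chr14:20929148-20929210, plus strand) has one at 227 bases.
Acta2: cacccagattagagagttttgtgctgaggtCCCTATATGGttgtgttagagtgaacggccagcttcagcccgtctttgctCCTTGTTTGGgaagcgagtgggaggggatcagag
Myl9: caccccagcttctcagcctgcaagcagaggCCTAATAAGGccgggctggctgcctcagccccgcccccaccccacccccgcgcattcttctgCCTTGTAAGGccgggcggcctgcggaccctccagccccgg
Cnn2: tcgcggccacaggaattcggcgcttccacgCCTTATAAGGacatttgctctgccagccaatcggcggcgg
Vcl: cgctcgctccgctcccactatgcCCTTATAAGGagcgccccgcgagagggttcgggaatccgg

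Of the 10 members, 9 matched a RefSeq window of 250 bases before to 50 bases after the start; Tagln did not. Full CArG boxes were found in 3 of these 9 windows (Cnn2, Myl9 and Vcl), against 1.63% of 32851 windows of the same length. With the looser form added, 4 of 9 windows held one, against 9.98% of all windows. The MCAT element, bound by TEAD proteins and searched as CATTCC on both strands, was in the windows of Acta2, Tpm1, Vcl and Flna, against 14.7% of all windows. The windows of Cnn1, Tpm2 and Actn1 held neither motif. The RefSeq start was 0 to 217 bases downstream of the GENCODE end for 8 of the 9 genes and 3286 bases downstream for Flna, so another start would give another window. A match is a description of these letters and not a binding site.

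**Figure D1:**
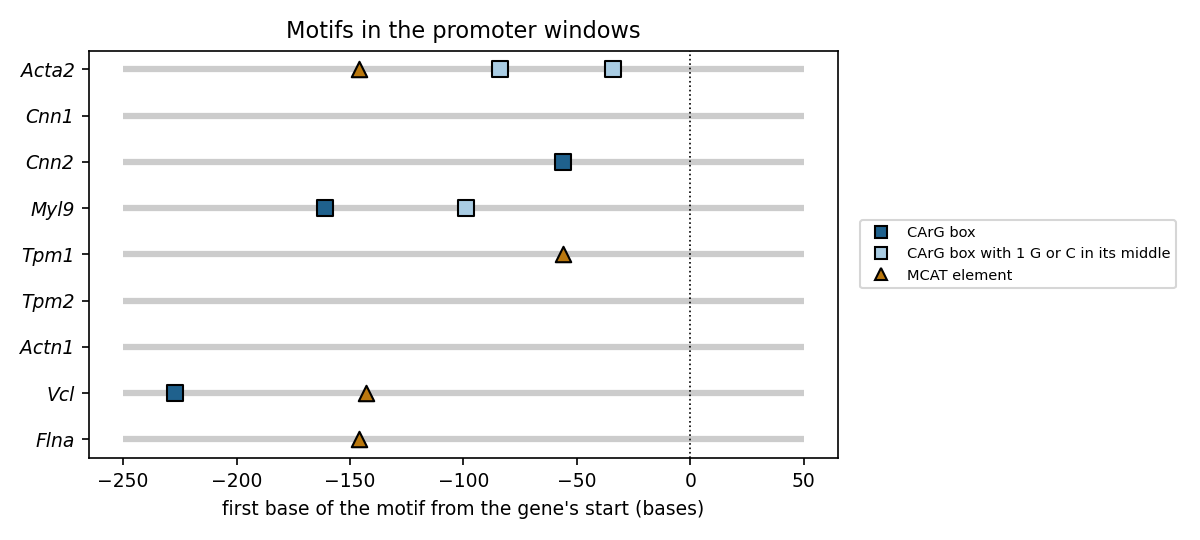
Positions of the motifs in the promoter windows of 9 members, as the distance of a motif's first base from the RefSeq start of the gene (x axis, bases; the grey bar is the searched window). Dark squares are CArG boxes, light squares the looser form, and triangles MCAT elements; Acta2 and Myl9 carry 2 boxes each, Cnn2 and Vcl 1 each.

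The libraries held from 28348179 reads (FTO knockdown) to 44580722 reads (METTL3 knockdown library 2). Mettl3 stood at 7.12 ± 0.797 CPM, the read count scaled to library size, in METTL3 knockdown and 27.0 ± 2.72 CPM in METTL3 control cells (SD, n = 2 each), a log2 fold change of -1.92 that missed the threshold by edgeR (adjusted p = 0.161). Fto was at 49.6 CPM in the FTO knockdown and 154.5 CPM in the FTO control library. Fibroblast and pre-adipocyte markers such as Col1a1, Vim and Dlk1 were above 1 CPM in at least 1 library for all 10 genes of the list. Of 8 smooth muscle markers, 2 stayed under 1 CPM in every library: Myh11 (smooth muscle myosin) and Myocd (the SRF partner of smooth muscle). The rest of that list did not, with Smtn at 27.7 to 51.8 CPM and Actg2 at 4.41 to 49.3 CPM. All 5 epithelial and all 4 endothelial markers stayed under 1 CPM in every library. Of 8 skeletal and cardiac muscle markers, 5 did, among them the regulators Myod1 and Myog. Tnnt2, Ttn and Acta1 of that list did not. Tnnt2 was at 45.96 CPM in the FTO knockdown and 27.5 CPM in the FTO control library. Ttn was at 6.24 CPM in the FTO knockdown and 2.825 CPM in the FTO control library, and Acta1 at 4.07 and 4.24 CPM. Mitochondrial genes took 0.605% to 0.757% of reads in the METTL3 experiment, against 3.90% in the FTO knockdown and 4.14% in the FTO control library.

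Together the 10 genes took 0.447% and 0.552% of all reads in the METTL3 knockdowns, against 0.452% and 0.629% in the METTL3 controls. They took 0.986% in the FTO knockdown and 1.04% in the FTO control library. Levels of different genes were compared on the deposited RPKM, which is scaled by gene length. Acta2 was the highest of the 10 in every library, at 306 and 612 RPKM in the METTL3 knockdowns and 317 and 829 RPKM in the METTL3 controls. It stood at 959 RPKM in the FTO knockdown and 1022 RPKM in the FTO control library. Cnn1 was the lowest in every library, at 0.0262 to 0.0689 RPKM.

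The order between these ends differed by experiment. In all 4 METTL3 libraries Cnn2, Flna, Tpm1 and Actn1 followed Acta2 in that order, with Cnn2 at 241 to 282 RPKM. In both FTO libraries the order was Flna, Actn1, Cnn2 and Tpm1, with Flna at 409.5 RPKM in the knockdown and 415 RPKM in the control. The 4 weaker genes Tagln, Myl9, Tpm2 and Vcl exchanged places between replicate libraries. Tagln, for example, was the 9th of 10 in METTL3 knockdown library 1 and METTL3 control library 1, the 7th in METTL3 knockdown library 2 and the 6th in METTL3 control library 2, so the order of these 4 does not hold beyond the spread of replicates.

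**Figure D2:**
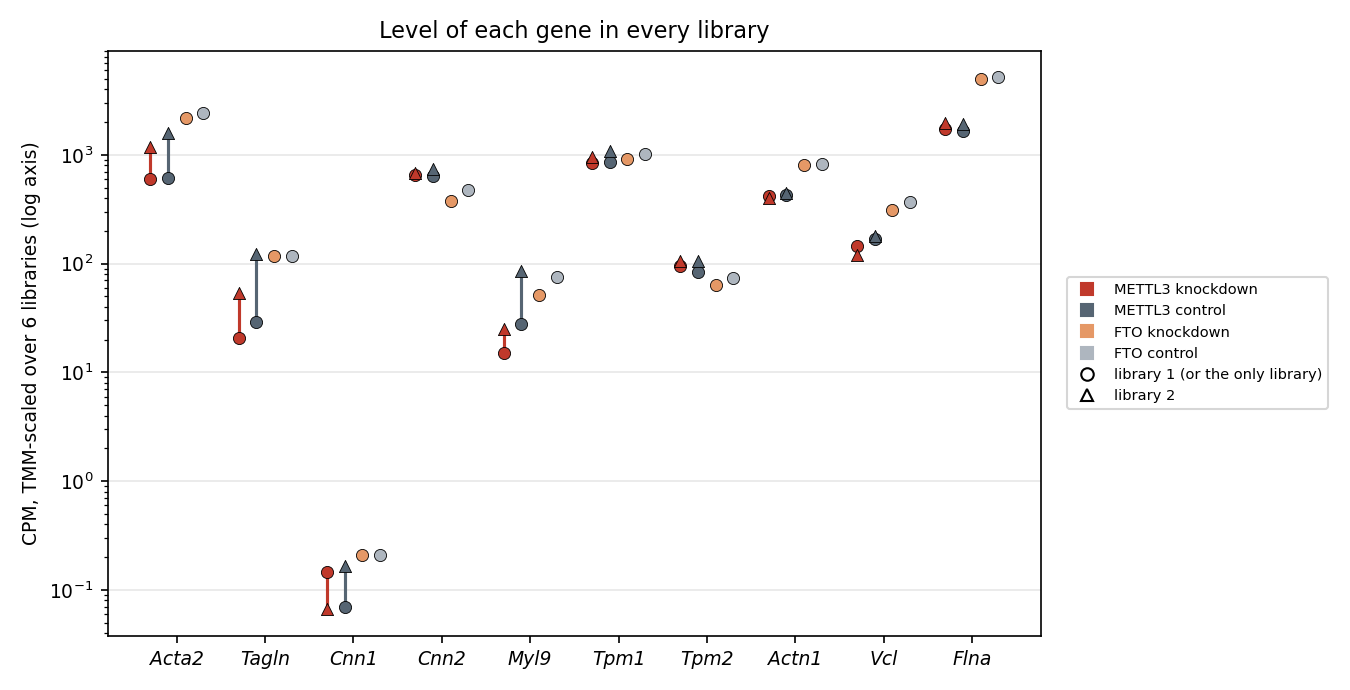
CPM of each of the 10 genes, scaled by TMM over all 6 libraries (y axis, log scale), with 1 point per library and lines joining the 2 libraries of a METTL3 group. Acta2, Tagln and Myl9 differ widely within each METTL3 group, and Cnn1 is near the floor in all. Flna is the highest of the 10 in every library on this scale, which does not take gene length into account.

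Acta2, Tagln and Myl9 had the largest ratios between replicate libraries among the 9 members tested. Acta2 (ENSMUSG00000035783, GRCm38 chromosome 19, 34241090 to 34255590) encodes the actin that gives myofibroblasts their contractile force. It was at 601 and 1181 CPM in METTL3 knockdown libraries 1 and 2 and at 614 and 1584 CPM in METTL3 control libraries 1 and 2. Both libraries numbered 1 were low, both numbered 2 were high, and the groups overlapped. Its mean was 891 ± 410.1 CPM in the knockdowns and 1099 ± 686 CPM in the controls (SD, n = 2 each), a log2 fold change of -0.30 (SE 0.52) that missed the threshold by edgeR's quasi-likelihood test (adjusted p = 0.865). It changed sign without METTL3 control library 2 (0.53) or METTL3 knockdown library 1 (0.10). Actin genes are similar in coding sequence. How reads with several matches were counted is not given, so the split of reads between actin genes is uncertain. In bulk RNA, fewer cells that express a gene and less of its RNA per cell cannot be told apart.

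Tagln (ENSMUSG00000032085, chromosome 9, 45929619 to 45936058) encodes transgelin, also called SM22, which binds actin filaments. It stood at 20.6 and 54.6 CPM in the METTL3 knockdowns and 28.9 and 123 CPM in the METTL3 controls. The groups overlapped, since knockdown library 2 lay above control library 1. The means were 37.6 ± 24.0 CPM in knockdown and 75.8 ± 66.3 CPM in control cells (SD, n = 2 each), and the log2 fold change of -1.01 (SE 0.76) did not pass by edgeR (adjusted p = 0.675). Pcsk7, which overlaps Tagln on the other strand, was at 34.8 and 35.7 CPM in the knockdowns and 37.5 and 40.6 CPM in the controls, close between the libraries of a group. The Tagln difference changed sign without METTL3 control library 2 (log2 fold change 0.38).

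Myl9 (ENSMUSG00000067818, chromosome 2, 156775420 to 156781658) encodes a regulatory light chain of myosin II, whose phosphorylation starts contraction. It was at 15.2 and 25.3 CPM in the METTL3 knockdowns and 27.9 and 84.6 CPM in the METTL3 controls. Both knockdown libraries lay below both controls, but knockdown library 2 and control library 1 were close. Means were 20.2 ± 7.13 CPM and 56.3 ± 40.1 CPM (knockdown and control, SD, n = 2 each). The log2 fold change of -1.47 (SE 0.55) was the largest in size among the 9 members tested and missed the threshold by edgeR (adjusted p = 0.413, unadjusted p = 0.0425). It was -0.47 without METTL3 control library 2 and -2.07 without METTL3 control library 1.

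These 3 genes were the ones that differed by more than 1.5-fold between the replicate libraries of both METTL3 groups. Library 2 exceeded library 1 for Acta2 by 1.97-fold in the knockdowns and 2.58-fold in the controls. For Tagln the ratios were 2.65 in the knockdowns and 4.25 in the controls, and for Myl9 1.66 in the knockdowns and 3.03 in the controls. Over all 13697 genes tested, 2.13% passed 1.5-fold in this direction between the knockdown libraries, 1.90% between the control libraries and 1.29% in both. The other 6 members tested differed by 0.822 to 1.14 times between the knockdowns and 1.04 to 1.27 times between the controls.

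**Figure D3:**
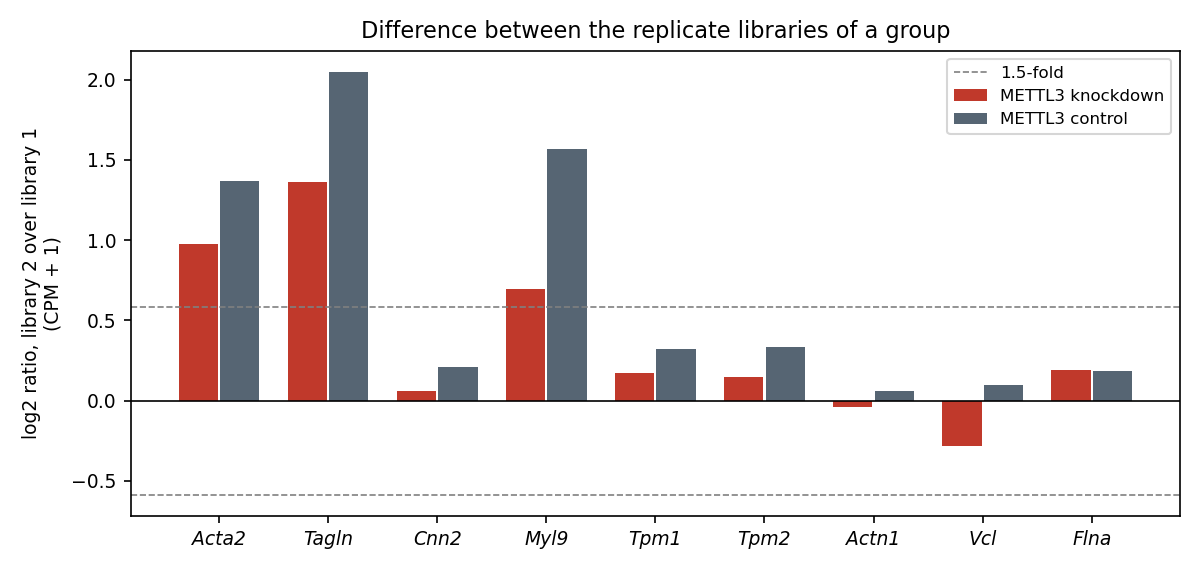
Log2 ratio of library 2 over library 1, on CPM + 1, within the METTL3 knockdown and the METTL3 control group for the 9 members tested (bars; dashed lines mark 1.5-fold). Acta2, Tagln and Myl9 pass the line in both groups, and the other 6 stay inside it.

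Most related genes did not pass 1.5-fold between replicate libraries. Over all genes tested, 2.13% passed with library 2 higher between the knockdowns and 1.90% between the controls. Several of the related lists held larger shares, but they are short and were chosen with earlier results of these data known. In each METTL3 group 2 of 13 actins, tropomyosins and paralogs, 3 of 12 targets and 1 of 7 smooth muscle markers (Actg2, also among the actins) did so with library 2 higher, and 0 of 12 myosin and 0 of 14 adhesion genes. The count was 1 of 15 for the SRF, TGF-beta and YAP regulators. It was 2 of 3 for the skeletal and cardiac muscle markers tested (Tnnt2 and Acta1, the latter also among the actins). Actg2, the gamma-actin of enteric smooth muscle, was at 4.41 and 14.2 CPM in knockdown libraries 1 and 2 and 5.66 and 28.1 CPM in control libraries 1 and 2. Fhl1, a LIM-domain gene of muscle, was at 1.21 and 3.20 CPM in the knockdowns and 2.22 and 8.66 CPM in the controls. Ccn2, a target of TGF-beta and YAP, was at 2.30 and 5.55 CPM in the knockdowns and 2.03 and 6.05 CPM in the controls. Actb, a non-muscle actin, differed less between the libraries of a group and was at 1470 and 1599 CPM in the knockdowns and 1643 and 1917 CPM in the controls. As a share of the summed RPKM of 6 actin genes, Acta2 made up 26.9% and 39.1% in the knockdowns and 26.3% and 44.2% in the controls. In the FTO knockdown and FTO control libraries this share was 31.7% and 31.3%.

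Cnn1 (ENSMUSG00000001349, chromosome 9, 22099216 to 22109630) encodes calponin 1, a late marker of smooth muscle. It had 6 and 3 reads in the METTL3 knockdowns and 3 and 7 reads in the METTL3 controls, and 6 reads in each FTO library. These values lie between 3 and 7 reads, near the 3 reads that a count of 0 allows, so no fold was computed, and the gene did not pass the filter on low counts. Cnn2 (ENSMUSG00000004665, chromosome 10, 79988584 to 79996062) encodes calponin 2, the form found outside smooth muscle. It was at 658 and 686 CPM in the METTL3 knockdowns and 644 and 745 CPM in the METTL3 controls, with a log2 fold change of -0.05 (SE 0.11, edgeR adjusted p = 0.909). The groups overlapped and the spread between the controls was larger than the difference of the means.

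Tropomyosins lie along actin filaments and set which myosins reach them. Tpm1 (ENSMUSG00000032366, chromosome 9, 67022590 to 67049406) was at 851 and 958 CPM in the METTL3 knockdowns and 858 and 1073 CPM in the METTL3 controls. Its log2 fold change was -0.09 (SE 0.14, edgeR adjusted p = 0.846). Tpm2 (ENSMUSG00000028464, chromosome 4, 43514711 to 43523765) was at 95.7 and 106 CPM in the knockdowns and 84.0 and 106 CPM in the controls, a log2 fold change of 0.08 (SE 0.14, edgeR adjusted p = 0.862). Both overlapped between the groups. Tpm2 made up 20.0% and 19.8% of the summed RPKM of Tpm1 and Tpm2 in the METTL3 knockdowns and 17.9% and 18.1% in the METTL3 controls. In the FTO knockdown and FTO control libraries it made up 13.5% and 14.1%.

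The last 3 members encode proteins that crosslink actin or tie it to adhesions. Vcl (ENSMUSG00000021823, chromosome 14, 20929398 to 21033676) encodes vinculin, which links integrin adhesions to actin. It was at 146 and 120.4 CPM in the METTL3 knockdowns and 167.5 and 179 CPM in the METTL3 controls, so both knockdown libraries lay below both controls. The means were 133 ± 18.4 CPM in knockdown and 173 ± 8.42 CPM in control cells (SD, n = 2 each). The log2 fold change of -0.38 (SE 0.13) missed the threshold by edgeR (adjusted p = 0.389, unadjusted p = 0.0289), and ranged from -0.53 to -0.25 with any 1 of the 4 libraries left out. Ap3m1, which overlaps Vcl on the other strand, had a log2 fold change of -0.03.

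Actn1 (ENSMUSG00000015143, chromosome 12, 80167547 to 80260371) encodes alpha-actinin 1, a crosslinker of actin bundles. It was at 418 and 406 CPM in the METTL3 knockdowns and 424 and 442 CPM in the METTL3 controls. The groups did not overlap, but the log2 fold change was only -0.07 (SE 0.09, edgeR adjusted p = 0.813). Flna (ENSMUSG00000031328, chromosome X, 74223461 to 74249820) encodes filamin A, which joins actin filaments into networks. It stood at 1723 and 1970 CPM in the METTL3 knockdowns and 1668 and 1896 CPM in the METTL3 controls, a log2 fold change of 0.05 (SE 0.12, edgeR adjusted p = 0.909) with overlapping groups. With 1 library left out, the sign turned for Cnn2, Tpm1 and Tpm2 and for Flna: without METTL3 control library 2 for Cnn2 (0.06) and Tpm1 (0.07), without METTL3 control library 1 for Tpm2 (-0.08) and Flna (-0.04), and without METTL3 knockdown library 2 for Flna (-0.05).

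Across the METTL3 comparison, 0 of the 9 members tested passed by edgeR at an adjusted p under 0.05, where 2 of 13697 genes did (0.0146%). DESeq2 also called 0 members, against 1.70% of the genes it adjusted. At an unadjusted p under 0.05 by edgeR lay 2 members, Myl9 and Vcl, both lower, against 11.5% of all genes in either direction and 5.10% in the lower direction. Both knockdown libraries lay below both controls for 3 of 9 members (Myl9, Actn1 and Vcl), against 22.0% of all genes. In either direction the groups were apart for the same 3 members, against 43.0% of all genes. The median log2 fold change of the 9 members was -0.09, against 0.00 over all genes. It was 0.07 without METTL3 control library 2 and -0.25 without METTL3 control library 1.

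In the FTO comparison each group was 1 library, so there is no replicate check and intervals cover counting error only. None of the 9 members with at least 50 reads passed 1.5-fold on the scale log2(CPM + 1), where 2.58% of 11432 genes did in the higher and 3.96% in the lower direction. The median log2 ratio of the members was -0.15, against 0.00 over all genes, and 8 of 9 were below 0. Myl9 had 1475 reads, or 51.7 CPM (95% interval 49.1 to 54.5), in the FTO knockdown and 2159 reads, or 74.4 CPM (71.3 to 77.6), in the FTO control library. That is 0.696 times the control level (95% counting interval of the ratio 0.651 to 0.744), the lowest ratio among the members.

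Cnn2 followed, at 377 CPM in the FTO knockdown and 471 CPM in the FTO control library (ratio 0.799, 0.779 to 0.820). Vcl stood at 311 CPM in the knockdown and 367 CPM in the control (ratio 0.847, 0.823 to 0.871). Tpm2 was at 63.5 CPM in the knockdown and 74.1 CPM in the control (ratio 0.857, 0.804 to 0.912). The remaining members were closer to the control. Tpm1 was at 909 CPM in the knockdown and 1009 CPM in the control (ratio 0.900), and Acta2 at 2203 CPM in the knockdown and 2397 CPM in the control (ratio 0.919). Flna had 4964 CPM in the knockdown and 5133 CPM in the control (ratio 0.967), and Actn1 808 CPM in the knockdown and 826 CPM in the control (ratio 0.978). Tagln stood at 117 CPM in the knockdown and 116.5 CPM in the control, a ratio of 1.01 whose interval (0.961 to 1.06) includes 1. The 10 fibroblast and pre-adipocyte markers summed to 8118 CPM in the FTO knockdown and 12312 CPM in the FTO control library, none of them under 1 CPM everywhere. Of these markers 5 of 10 passed 1.5-fold lower (Col1a1, Col1a2, Pdgfra, Thy1 and Dlk1), and their part in the members' ratios was not tested.

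**Figure D4:**
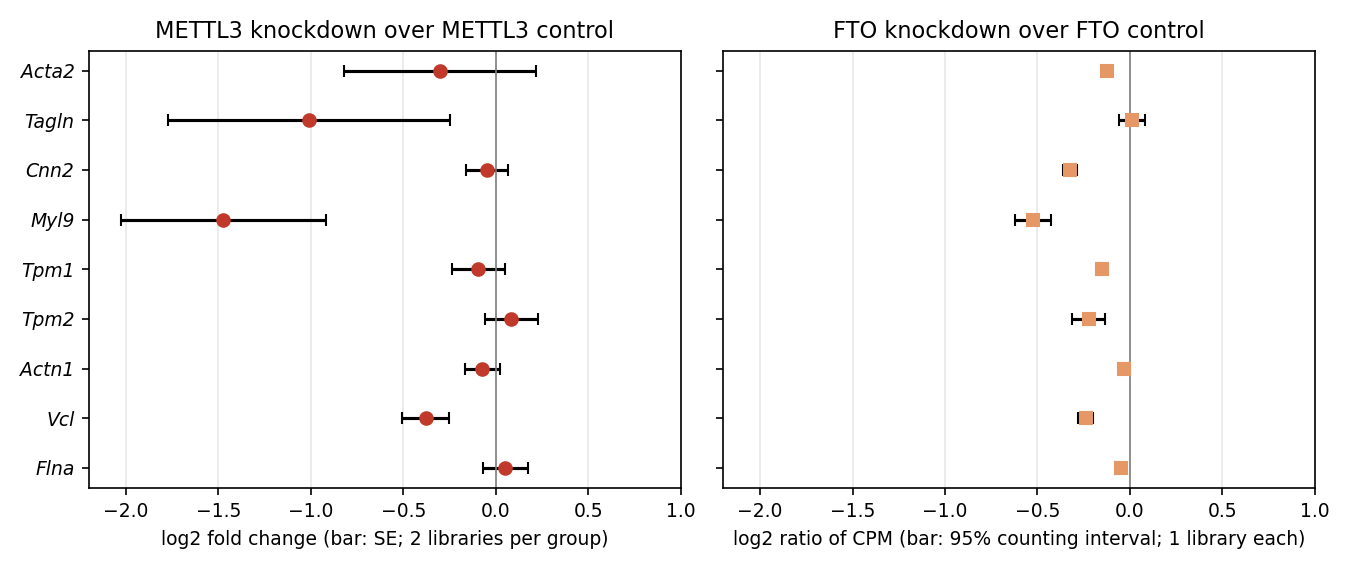
Left, log2 fold change of METTL3 knockdown over METTL3 control with its SE (2 libraries per group); right, log2 ratio of CPM of FTO knockdown over FTO control with its 95% counting interval (1 library per group, so no replicate error). Acta2, Tagln and Myl9 have the widest bars on the left, and Myl9 has the lowest value on both sides.

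Between the experiments, levels were set side by side on CPM scaled over all 6 libraries and were not tested. Experiment and sequencing mode cannot be told apart. Flna reached 5165 CPM in the FTO control library, 2.89 times the 1785 ± 169.5 CPM of the METTL3 controls (SD, n = 2). Acta2 was at 2412 CPM and 1102 ± 692 CPM, Vcl at 370 CPM and 174 ± 9.21 CPM, and Actn1 at 831 CPM and 434 ± 14.6 CPM (FTO control, then METTL3 controls). For these 4 genes both FTO libraries lay above all 4 METTL3 libraries. Cnn2 and Tpm2 lay below all 4, at 474 and 74.6 CPM in the FTO control against 695 ± 74.4 and 95.3 ± 16.2 CPM in the METTL3 controls. Cnn1 also lay above all 4, but near the floor in every library. Tagln, Myl9 and Tpm1 overlapped between the experiments. The share of all genes that lie apart between the experiments was not counted, so these counts are not read as particular to the members. Neighbours went both ways on the deposited RPKM. Actb stood higher in the FTO experiment, at 1690 RPKM in the FTO knockdown and 1841 RPKM in the FTO control library. It was at 497.5 and 551 RPKM in the METTL3 knockdowns and 565 and 667 RPKM in the METTL3 controls. Cnn3 stood lower, at 110 RPKM in the FTO knockdown and 124 RPKM in the FTO control library. It was at 206 and 181.5 RPKM in the METTL3 knockdowns and 215 and 214.5 RPKM in the METTL3 controls.

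The wider pathway was read from lists of related genes. None of their genes passed by edgeR in the METTL3 comparison (0.0146% of all genes did). Among 13 tested actins, tropomyosins and paralogs of the members, 6 had a log2 fold change above 0 and 7 below (median -0.07). Actg2 stood at -0.85 (SE 0.86, edgeR adjusted p = 0.759) and Tmod3, a tropomodulin that caps actin filaments, at -0.33 (SE 0.11, edgeR adjusted p = 0.393). Among 12 genes of myosin II and its control the median was -0.06. The light chain gene Myl12a was at -0.31 (SE 0.17) and Myh11, at 0.166 to 0.336 CPM, was 0.46 (SE 0.46). Of 14 focal adhesion and integrin genes 10 were below 0 (median -0.07), and 3 had an unadjusted p under 0.05 by edgeR, all lower, where 5.10% of all genes were lower at that p and 11.5% in either direction. Among them were Fermt2, an activator of integrins (-0.29, SE 0.11), and Lpp, a LIM protein of adhesions (-0.26, SE 0.10).

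Upstream of the members, Srf was at 187 and 216 CPM in the METTL3 knockdowns and 171.5 and 161 CPM in the METTL3 controls, a log2 fold change of 0.28 (SE 0.11, edgeR adjusted p = 0.446). Its partner Mrtfa was at -0.10 and Mrtfb at -0.09. Tgfbr1, a receptor of TGF-beta, was at 18.4 and 16.4 CPM in the knockdowns and 10.1 and 9.63 CPM in the controls (log2 fold change 0.81, SE 0.14), and missed the threshold by edgeR (adjusted p = 0.228). The ligand gene Tgfb1 was at 71.7 and 70.3 CPM in the knockdowns and 57.3 and 46.7 CPM in the controls (0.45, SE 0.13, edgeR adjusted p = 0.349). For both, the 2 knockdown libraries lay above both controls, as they did for 2875 of all 13697 genes tested. Among the 15 regulators tested, 4 lay apart higher and 4 apart lower. The median was -0.08 over 15 regulators and -0.13 over 12 targets. Ankrd1, a target of YAP, was at 8.75 and 11.7 CPM in the knockdowns and 6.45 and 6.60 CPM in the controls (0.65, SE 0.19, edgeR adjusted p = 0.355). Fhl1 stood at -1.29 (SE 0.75).

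In the FTO comparison, where 2.58% of all genes passed 1.5-fold higher and 3.96% lower, the target Ankrd1 passed it higher, at 16.7 CPM in the FTO knockdown and 8.24 CPM in the FTO control library. The collagen gene Col1a1 passed it lower, at 1158 CPM in the knockdown and 2109 CPM in the control. Of 15 regulators Smad7, a feedback inhibitor of TGF-beta, was the one past 1.5-fold higher (79.3 CPM in the knockdown and 43.6 CPM in the control), and Tgfb3 the one past it lower. No gene among 13 actins, tropomyosins and paralogs, 11 myosin genes or 13 adhesion genes passed 1.5-fold. The largest ratio in size within the myosin list was that of Mylk, the kinase of myosin light chains, at 19.4 CPM in the knockdown and 29.1 CPM in the control. Within the adhesion list it was that of Parva (log2 ratio -0.30), and within the actin list that of Flnc (-0.29).

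Of the marker lists of other cell types, smooth muscle markers had the highest sum in every library and epithelial markers the lowest. The 8 smooth muscle markers summed to 80.2 and 93.9 CPM in the METTL3 knockdowns and 68.7 and 89.3 CPM in the METTL3 controls, and to 90.5 CPM in the FTO knockdown and 98.7 CPM in the FTO control. Skeletal and cardiac muscle markers, 5 of 8 of them under 1 CPM everywhere, summed to 2.70 and 8.04 CPM in the METTL3 knockdowns and 3.07 and 7.01 CPM in the METTL3 controls, higher in both libraries numbered 2, as Acta2, Tagln and Myl9 were. The muscle markers summed to 56.2 CPM in the FTO knockdown and 34.8 CPM in the FTO control, again mostly Tnnt2. In the FTO comparison 2 of the 3 muscle markers with at least 50 reads passed 1.5-fold higher, where 2.58% of all genes did. The 6 pericyte markers, 4 of them under 1 CPM everywhere, summed to 21.1 and 15.8 CPM in the METTL3 knockdowns and 18.0 and 13.3 CPM in the METTL3 controls. Most of this was Notch3, at 19.8 and 14.1 CPM in the knockdowns and 16.5 and 11.2 CPM in the controls. The sum was at most 7.11 CPM in the FTO libraries. There most of it was Mcam, at 5.68 CPM in the FTO knockdown and 3.48 CPM in the FTO control. Macrophage and leukocyte markers summed to 7.63 to 11.4 CPM, endothelial markers to 0.761 to 1.55 CPM and epithelial markers to 0.208 to 0.377 CPM. Up to 2 genes are named from each of these lists, those with the largest METTL3 log2 fold change in size within the list, beside Actg2, which is also a smooth muscle marker: Thy1 (log2 fold change 0.94), Pdgfra (-0.46), Tek (1.46), Pecam1 (0.21), Csf1r (0.64), Cd68 (0.36), Ldb3 (-0.46), Ttn (-0.41), Acta1 (0.23), Notch3 (0.29) and Mcam (-0.26). None passed by edgeR. The gene with the largest FTO ratio within its list was Pdgfra (log2 ratio -0.998) among fibroblast markers, Lmod1 (-0.42) among smooth muscle, Ttn (0.92) among muscle, Cd68 (-0.56) among macrophage and Mcam (0.58) among pericyte markers. The fibroblast markers summed to 26306 and 23773 CPM in the METTL3 knockdowns and 26835 and 25066 CPM in the METTL3 controls. Both sums were lower in library 2, and the median log2 ratio of library 2 over 1 was -0.20 in the knockdowns and -0.11 in the controls. Not every marker followed the sum. Dlk1 was higher in library 2, at 3414 and 3774 CPM in the knockdowns and 3646 and 4429 CPM in the controls. The part of these levels in the members' values was not tested.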

How the data were processed

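Poly(A)-selected RNA of 6 libraries was read with 101 bp reads. The authors deposited, per the file headers, a whole-number read count and an RPKM value per Ensembl gene for each library. No source used here gives the lengths and totals behind RPKM, whether strand was used or how reads with several matches were handled. The submitters' processing notes name TopHat2 2.0.9, bedtools and the build mm10. GENCODE mouse release 21 gave the symbols and positions (GRCm38, the assembly of mm10), and 35449 of 37315 IDs matched. Promoter windows came from RefSeq (GRCm38.p6).

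For METTL3, the deposited read counts went into edgeR 4.0.16 under R 4.3.3 (TMM, filterByExpr, robust quasi-likelihood fit without a replicate block, two-sided, Benjamini-Hochberg over 13697 genes, threshold 0.05). SE is the absolute log2 fold change over the square root of F. An exact permutation test of 2 against 2 libraries cannot go below p = 0.333. The fit was tested on simulated data. The simulated libraries were independent, so this does not cover a spread shared by libraries of the same number. FTO ratios used a pseudocount of 1 CPM, at least 50 reads and 1.5-fold; intervals are exact Poisson or conditional binomial at 95%. CPM is TMM-scaled within an experiment unless stated. Sums over marker lists use CPM scaled over all 6 libraries. A count of 0 allows up to 3 reads (0.0673 to 0.106 CPM).

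Alternatives were DESeq2 1.42.0, limma 3.58.1, other scalings, filters and pseudocounts, and leaving out each METTL3 library. The members and lists were chosen with earlier results of these data known. Named were all members and, per list, the 2 genes with the largest METTL3 and the 1 with the largest FTO change. Srf, Mrtfa, Mrtfb, Actb, Cnn3, Ccn2, Smtn, Tnnt2, Tgfb3, Col1a1, Pcsk7 and Ap3m1 were named after their values were seen. One gene that this rule names is not reported here.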

Additional observations from a re-analysis of the deposited data

How the results depend on the processing

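For the METTL3 comparison, the count of genes called by edgeR (2) became 222 by DESeq2 and 111 without the filter on low counts, and 2 to 70 with any 1 library left out (70 without METTL3 knockdown library 1). Leaving out a library puts 1 sample in a group, which is then assumed to vary like the other group. No member was called under any of these alternatives. The cause of the differences between counts was not tested.

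Same-numbered libraries share only a number in the labels; their deviations from the group means correlated at 0.741 over 13697 genes, a hint from the data and not from the design. With the number as a replicate block, edgeR called 3706 genes (27.06%) and 2 members: Vcl (log2 fold change -0.38, adjusted p = 2.0e-05) and Acta2 (-0.23, adjusted p = 0.0113).

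The median member log2 fold change ranged from -0.25 to 0.073 with 1 library left out. On the same runs 6 members changed sign: Acta2 (-0.87 to 0.53), Tagln (-1.88 to 0.38), Cnn2 (-0.15 to 0.056), Tpm1 (-0.25 to 0.073), Tpm2 (-0.077 to 0.26) and Flna (-0.053 to 0.14). Myl9, Vcl and Actn1 stayed below 0. In the FTO comparison no member passed 1.5-fold under any alternative and none changed sign; 6 of 36 values moved beyond their counting interval. Depth does not allow a fold for Cnn1, and the single FTO library per group allows no test.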
